A study of Mus musculus with 29 samples.

Results

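Liver RNA of mice kept on a calorie-restricted diet with fish oil as its fat was compared with liver RNA of control mice. The libraries were chosen by their labels as the 4 fish and the 3 control livers, 7 of the 29 libraries of the series, and all genes were followed. Fish mice (mice 1067, 1123, 1124 and 1125) received 60% of ad libitum intake, or 8.6 kcal per day. Control mice (1095, 1120 and 1121) received 95% of it, or 13.6 kcal per day. The labels give the diets as fish, soy, lard and control; fish is taken here to mean fish oil, from the omega-3 fatty acids of the series title. Livers of mice restricted to the same 60% on the soy (4) or lard (4) diet served to show where fish livers differed from other restricted livers. All animals were male C57BL/6, an inbred strain, bought at 14 weeks of age, fed chow and assigned to diets at 4 months. Each library came from 1 mouse. The labels name no fat for the control diet, so energy intake and fat source cannot be told apart in the comparison with control. The series title asks how far omega-3 fat, the polyunsaturated fat typical of fish oil, returns the expression profile of long-term restriction toward that of fuller feeding.

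As background, liver makes new fat when food is plentiful and switches to burning fat and making glucose when it is scarce. Fatty acids are sensed there by nuclear receptors such as PPARalpha, and polyunsaturated ones dampen the transcription factors that drive fat synthesis. Rodent liver is also strongly sexually dimorphic: pulsed growth hormone, acting through STAT5, keeps a male set of genes on, among them those of the major urinary proteins (Mups), pheromone carriers excreted in urine, and keeps a female set off.

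The livers held 15316165 to 19188291 exon reads per library in fish mice and 14110643 to 15600900 in control mice. Of gene reads, 8.19% to 8.92% lay outside exons in fish livers and 7.98% to 8.56% in control livers. The 10 hepatocyte genes checked (Alb, Ttr, Apoa1 and others) summed to 125215 to 150820 counts scaled to 1000000 exon reads per library (CPM) in fish livers and 113159 to 129543 CPM in control livers, and none was at 0. The first principal component held 36.8% of the variance and put every fish liver (2.02 to 33.5) above every control liver (-29.0 to -11.1). Fish liver 1123 stood apart in 15 skeletal muscle markers, which summed to 458, 3937, 329 and 235 CPM in fish livers 1067, 1123, 1124 and 1125, against 304, 284 and 227 CPM in control livers, with no marker at 0 in any of them. Fish liver 1124 was highest for 11 macrophage markers (1072 CPM, against 486 to 618 in the other fish livers and 484 to 573 in control livers) and for 10 neutrophil markers (12.6 CPM, against 3.78 to 4.58 in the other fish livers and 4.67 to 4.81 in control livers). The part of these markers in the results was not tested. Calls of single genes and counts of called genes are given below without these livers where that changes them. Medians and counts of gene lists were taken from all 7 livers only.

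Relative to control, 78 of 12527 genes tested passed an adjusted p of 0.05 in edgeR's quasi-likelihood test, 0.623% of them, with 22 higher (0.176%) and 56 lower (0.447%) in fish livers. In all 78 the 4 fish livers and the 3 control livers did not overlap in CPM, as was so for 12.3% of all genes tested. The log2 fold changes of the called genes ran from 0.70 to 7.47 upward and from -0.42 to -7.37 downward. Of them 14 were more than 2-fold higher, 32 more than 2-fold lower and 32 changed by 2-fold or less. At an unadjusted p under 0.05 edgeR gave 1735 genes, 13.9% of those tested. Among removals of 1 library, the count moved most with control livers: without control liver 1120 only 1 gene passed, and without control liver 1121 only 3, whereas 196 passed without control liver 1095. Without fish livers 1067, 1123, 1124 and 1125 the counts were 44, 41, 15 and 52. Sult2a7 was the single gene of the 78 that passed in each of these 7 removals. No fold change of a called gene changed sign in any of the alternatives run.

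**Figure D1:**
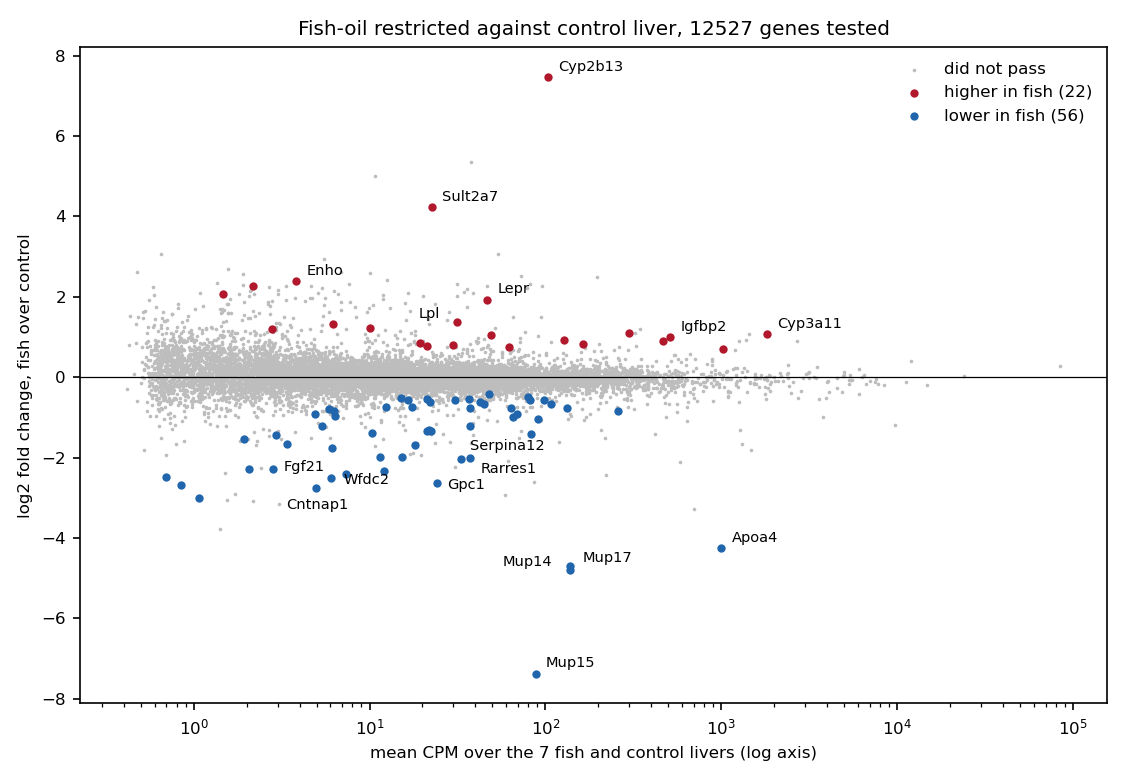
Log2 fold change of each gene tested, fish over control livers, against its mean CPM over the 7 livers (log axis). Red points are the 22 genes higher in fish livers and blue points the 56 lower at an adjusted p of 0.05 (edgeR), and Cyp2b13 (7.47) and Mup15 (-7.37) lie farthest from 0.

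**Figure D2:**
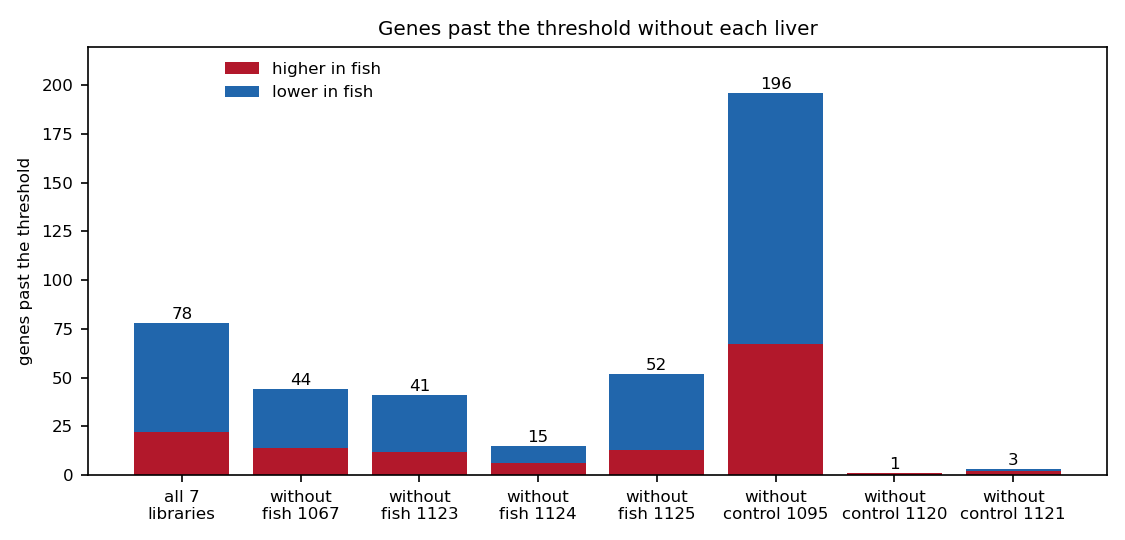
Number of genes past the threshold in fish against control livers with all 7 libraries and with each liver left out, split into genes higher (red) and lower (blue) in fish livers. The bars reach 78 with all libraries, 196 without control liver 1095, 1 without control liver 1120 and 3 without control liver 1121.

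The extremes of the comparison were genes known to differ between male and female mouse liver. Cyp2b13, a cytochrome P450 typical of female liver (chr7:26061495-26096196, GRCm38), stood at 91.0, 199, 390.1 and 41.5 CPM in fish livers 1067, 1123, 1124 and 1125, against 1.70, 0.206 and 1.03 CPM in control livers 1095, 1120 and 1121. Every fish liver was far above every control liver, although fish livers differed widely among themselves. The log2 fold change was 7.47 ± 0.98 (SE; edgeR adjusted p = 0.0203). Sult2a7, a sulfotransferase acting on steroids and bile acids (chr7:14465159-14492926), had 32.7, 37.6, 53.6 and 27.9 CPM in fish livers, against 1.84, 2.40 and 1.6 CPM in control livers, a log2 fold change of 4.23 ± 0.27 with the smallest adjusted p of all genes (edgeR, 0.00124). The groups did not overlap for this gene, and fish livers ranged from 27.9 to 53.6 CPM.

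On the male side, Mup15 (chr4:61435790-61439743) fell to 3.69, 1.08, 0.196 and 0.313 CPM in fish livers, against 80.1, 223 and 308 CPM in control livers (log2 fold change -7.37 ± 0.77, edgeR adjusted p = 0.0126). Mup14 fell to 25.6, 4.20, 9.14 and 7.61 CPM in fish livers, against 81.9, 339 and 493 CPM in control livers (-4.80 ± 0.73, adjusted p = 0.0323), and Mup17 to 23.4, 4.31, 6.99 and 14.5 CPM in fish livers, against 93.3, 288 and 536 CPM in control livers (-4.70 ± 0.70, adjusted p = 0.0315). Control liver 1095 was the lowest control liver and fish liver 1067 the highest fish liver for all 3 genes. The Mup genes are near-identical copies in a cluster on chromosome 4, and only 5.78%, 14.6% and 22.6% of the exon reads of Mup15, Mup14 and Mup17 were unique to a place in the genome, so the split of reads between copies is uncertain. Counted on unique reads alone, Mup15, Mup14 and Mup17 passed again. Another Mup gene, Mup13, named after its values were seen, was also called lower. It had 4.12 to 6.33 CPM in fish livers and 12.3 to 25.4 CPM in control livers (-1.99 ± 0.26, edgeR adjusted p = 0.0203). Only 3.99% of its reads were unique. Its call was lost in 5 of 7 removals of a library and in the fit of all 4 liver diets, with or without soy livers 1073 and 1159. It was also lost against a 1.5-fold change. Of the 12 alternatives apart from removals, Mup13 had a value in 11. The 250 bases before the RefSeq start of Mup15 and Mup17 are shown to let the likeness of these copies be seen, with the TATATAA letters in capitals. Mup15 lies at chr4:61439705-61439954 and Mup17 at chr4:61595833-61596082 (GRCm38.p6, minus strand, 5′ to 3′).
Mup15: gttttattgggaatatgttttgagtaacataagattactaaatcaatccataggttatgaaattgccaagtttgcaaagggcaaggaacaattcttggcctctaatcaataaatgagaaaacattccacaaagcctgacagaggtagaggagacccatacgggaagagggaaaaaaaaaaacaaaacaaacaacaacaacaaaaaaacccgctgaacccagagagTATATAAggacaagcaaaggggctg
Mup17: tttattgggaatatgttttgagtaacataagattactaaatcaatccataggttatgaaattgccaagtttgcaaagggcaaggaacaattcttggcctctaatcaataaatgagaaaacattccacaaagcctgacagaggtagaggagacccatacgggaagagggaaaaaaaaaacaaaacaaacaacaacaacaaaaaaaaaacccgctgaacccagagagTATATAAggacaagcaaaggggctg
These windows were 98.4% identical over 251 aligned columns. TATATAA was present on either strand in the windows of 1.56% of 9806 tested genes with a RefSeq window, and the STAT5-type motif TTCNNNGAA in 7.27%. Of the called genes with a window, the STAT5-type letters were found in 0 of 16 higher genes and in 3 of 40 lower ones (Arsg, Eif2ak3 and Sdr9c7). Among other motifs searched on both strands, the E-box CACGTG was in 2 of 16 higher and 5 of 40 lower windows (9.77% of genes) and the HNF4-type CAAAGTCCA in 1, that of Cyp3a11, and 0 (0.561%). Another motif, the direct repeat of nuclear receptor sites with a 1-base spacer, was in none of either group (0.051% of genes).

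Of 31 male-biased liver genes tested, 3 fell (Mup15, Mup14 and Mup17), against 0.447% of all genes tested, and 0 rose. The median log2 fold change of the list was -1.31, against 0.01 over all genes tested, and 20 members had an unadjusted p under 0.05 with lower values in fish livers, against 7.86% of all genes. Of 29 female-biased genes tested, 2 rose, against 0.176% of all genes tested, and 0 fell. The median was 0.89. An unadjusted p under 0.05 was met by 16 members with higher and 1 with lower values in fish livers. The shares over all genes were 5.99% and 7.86%. A further 13 listed genes had too few reads to be tested. A gene nearly silent in control livers was tested only if fish livers had enough reads, so this median and the rises were not free of the filter. Members short of the threshold spread widely. Cux2, a repressor expressed in female liver, measured 3.05, 36.4, 32.1 and 2.19 CPM in fish livers and 0.567, 0.549 and 0.513 CPM in control livers (5.0 ± 1.25, edgeR adjusted p = 0.139). Mup7 measured 464, 28.8, 29.8 and 95.6 CPM in fish livers and 1161, 1609 and 1532 CPM in control livers (-3.28 ± 0.90, adjusted p = 0.163). In fish livers 1123 and 1124 Cux2 was high and Mup7 low, while livers 1067 and 1125 showed the smaller Cux2 values and the larger Mup7 values. Among 18 genes of the growth hormone axis 1 rose, Igfbp2, against 0.176% of all genes tested. The values of Igf1, the main hormone made by liver under growth hormone, were 614 to 714 CPM in fish livers and 575 to 614 CPM in control livers (0.13 ± 0.10, edgeR adjusted p = 0.594). Of the 5 called genes of the male-biased and female-biased lists, Cyp2b13, Mup15, Mup14 and Mup17 did not pass without control liver 1120 (adjusted p 0.0546 to 0.112). Nor did they without control liver 1121 (0.0646 to 0.109). Mup14 and Mup17 also did not pass without fish liver 1124 (0.105 to 0.109) or 1125 (0.0706 to 0.0824), nor Mup14 without 1123 (0.0567). With limma-voom the call of Cyp2b13 was lost (adjusted p = 0.147).

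**Figure D3:**
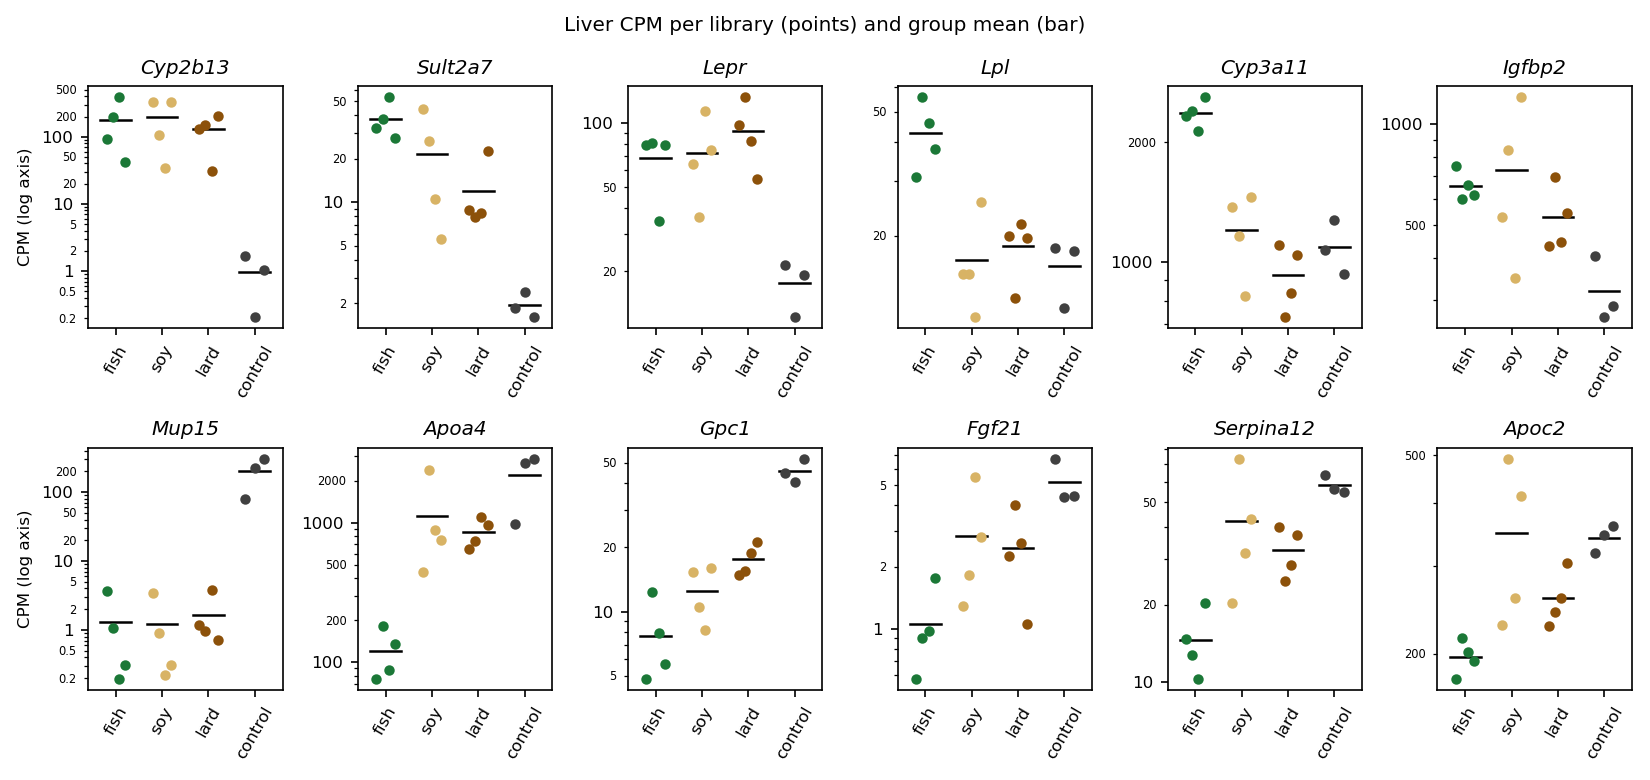
CPM in every liver library (points, log axis) and group mean (bar) for 12 called genes in fish, soy, lard and control livers. For Cyp2b13 the 4 fish livers lie at 41.5 to 390.1 CPM and the 3 control livers at 0.206 to 1.70 CPM, and for Apoa4 the fish livers (76.0 to 182 CPM) lie below every other liver.

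Genes of lipid transport in blood were called in both directions. Apoa4, an apolipoprotein of triglyceride-rich particles (chr9:46240696-46243459), fell to 76.0, 182, 88.4 and 135 CPM in fish livers, against 985, 2669.7 and 2882 CPM in control livers (log2 fold change -4.25 ± 0.45, edgeR adjusted p = 0.0126). The highest fish liver was thus below the lowest control liver by more than 2-fold. Of its reads 48.5% were unique, and an antisense transcript covers 34.8% of its exon bases, so part of the count cannot be assigned with certainty. On unique reads the log2 fold change was -4.18. Apoc2, the apolipoprotein that activates lipoprotein lipase, fell to 178, 215, 201 and 193 CPM in fish livers, against 318, 347 and 360.4 CPM in control livers (-0.84 ± 0.11, adjusted p = 0.0192). Another annotated transcript on the same strand covers 79.5% of its exon bases.

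Lpl itself, the lipase that frees fatty acids from circulating triglyceride and is low in adult liver cells, rose to 30.9, 55.8, 46.0 and 38 CPM in fish livers, against 18.3, 11.7 and 17.9 CPM in control livers (1.38 ± 0.21, edgeR adjusted p = 0.0323). Its highest value was in fish liver 1123, which also had the skeletal muscle markers, and muscle and fat are rich in this enzyme. Without that liver the log2 fold change was 1.24 (adjusted p = 0.0469). The 7 adipocyte markers summed to 4114, 3161, 3641 and 4217 CPM in fish livers 1067, 1123, 1124 and 1125, against 2982, 2331 and 3997 CPM in control livers, with 0 to 2 markers at 0 in fish livers and 2 to 4 in control livers. The sum was lowest of the fish livers in 1123 and is nearly all Pck1, which hepatocytes also express (3133 to 4208 CPM in fish livers and 2325 to 3989 CPM in control livers). Of the other markers, Adipoq and Fabp4 measured 0.0636 to 1.14 and 8.44 to 21.0 CPM in fish livers and 0 to 0.0686 and 5.63 to 7.63 CPM in control livers, both highest in fish liver 1123. The part of the muscle and adipocyte markers in the Lpl value was not tested. In bulk tissue, fewer cells of a type and less RNA per cell cannot be told apart.

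Of 26 lipoprotein genes tested, 2 fell (Apoa4 and Apoc2), against 0.447% of all genes tested, and the list median was -0.01. Vldlr, the receptor for very low density lipoprotein, measured 24.4, 43.9, 27.6 and 23.1 CPM in fish livers and 15.3, 6.59 and 10.4 CPM in control livers (1.43 ± 0.28, edgeR adjusted p = 0.0714). The calls of Apoa4, Apoc2 and Lpl were all lost without control liver 1120 (adjusted p 0.0546 to 0.122) and without control liver 1121 (0.0646 to 0.103), those of Apoc2 and Lpl without fish liver 1124 (0.0647 to 0.0994), and that of Lpl without fish liver 1125 (0.0647). In the fit of all 4 liver diets those of Apoc2 and Lpl were lost (0.0603 to 0.222), and that of Lpl in limma on log2(RPKM + 1) (0.0529). With the number in the library code as a replicate block in edgeR, those of Apoa4 and Apoc2 were lost (0.0513 to 0.0777).

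Genes that make, store or burn fat were followed in lists. Of 29 genes of fatty acid and triglyceride synthesis 0 passed in edgeR, against 0.623% of all genes tested. An unadjusted p under 0.05 was met by 4 with higher and 10 with lower values in fish livers. The shares over all genes tested were 5.99% and 7.86%. The list median was -0.19. Agpat2, an acyltransferase of triglyceride assembly, measured 106, 83.5, 93.8 and 101 CPM in fish livers and 146, 140.3 and 135 CPM in control livers (-0.59 ± 0.11, edgeR adjusted p = 0.0523), with 36.2% of its reads unique. Pklr, the liver pyruvate kinase, had 202, 279, 232 and 216 CPM in fish livers and 347, 465 and 321 CPM in control livers (-0.76 ± 0.17, adjusted p = 0.0998). For both genes all 4 fish livers were below every control liver. Scd1, the desaturase that makes monounsaturated fat, measured 2818, 8699, 7681 and 6477 CPM in fish livers and 13841, 10158 and 18467 CPM in control livers (-1.18 ± 0.35, adjusted p = 0.198). Elovl2, an elongase of polyunsaturated fatty acids, measured 442 to 581 CPM in fish livers and 645 to 925 CPM in control livers (-0.75 ± 0.15, edgeR adjusted p = 0.0717). Of 26 genes of polyunsaturated fat and eicosanoid metabolism 0 passed, against 0.623% of all genes tested.

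Of 21 genes of lipid droplets, lipases and PPARgamma-linked storage 1 rose, Lpl, against 0.176% of all genes tested. An unadjusted p under 0.05 with lower values in fish livers was met by 11 others, against 7.86% of all genes tested. The list median was -0.36. Cidec, a protein that lets lipid droplets fuse and grow, measured 5.73, 8.21, 5.94 and 7.19 CPM in fish livers and 9.92, 19.9 and 26.5 CPM in control livers (-1.53 ± 0.31, edgeR adjusted p = 0.0793). Its relative Cidea measured 0.0636 to 0.365 CPM in fish livers and 0.709 to 4.87 CPM in control livers (-3.78 ± 0.72, adjusted p = 0.0683). Of 46 PPARalpha targets 1 fell, Fgf21, against 0.447% of all genes tested, and none rose. An unadjusted p under 0.05 was met by 5 with higher and 9 with lower values, with a median of -0.04. The shares over all genes tested were 5.99% and 7.86%. The list pointed both ways: Cyp4a31, a fatty acid hydroxylase, measured 63.9 to 75.3 CPM in fish livers and 21.3 to 43 CPM in control livers (1.22 ± 0.24, adjusted p = 0.0717), whereas Cpt1a, the gate for fatty acid entry into mitochondria, measured 598 to 624 CPM in fish livers and 794 to 1012 CPM in control livers (-0.59 ± 0.12, adjusted p = 0.0717).

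**Figure D4:**
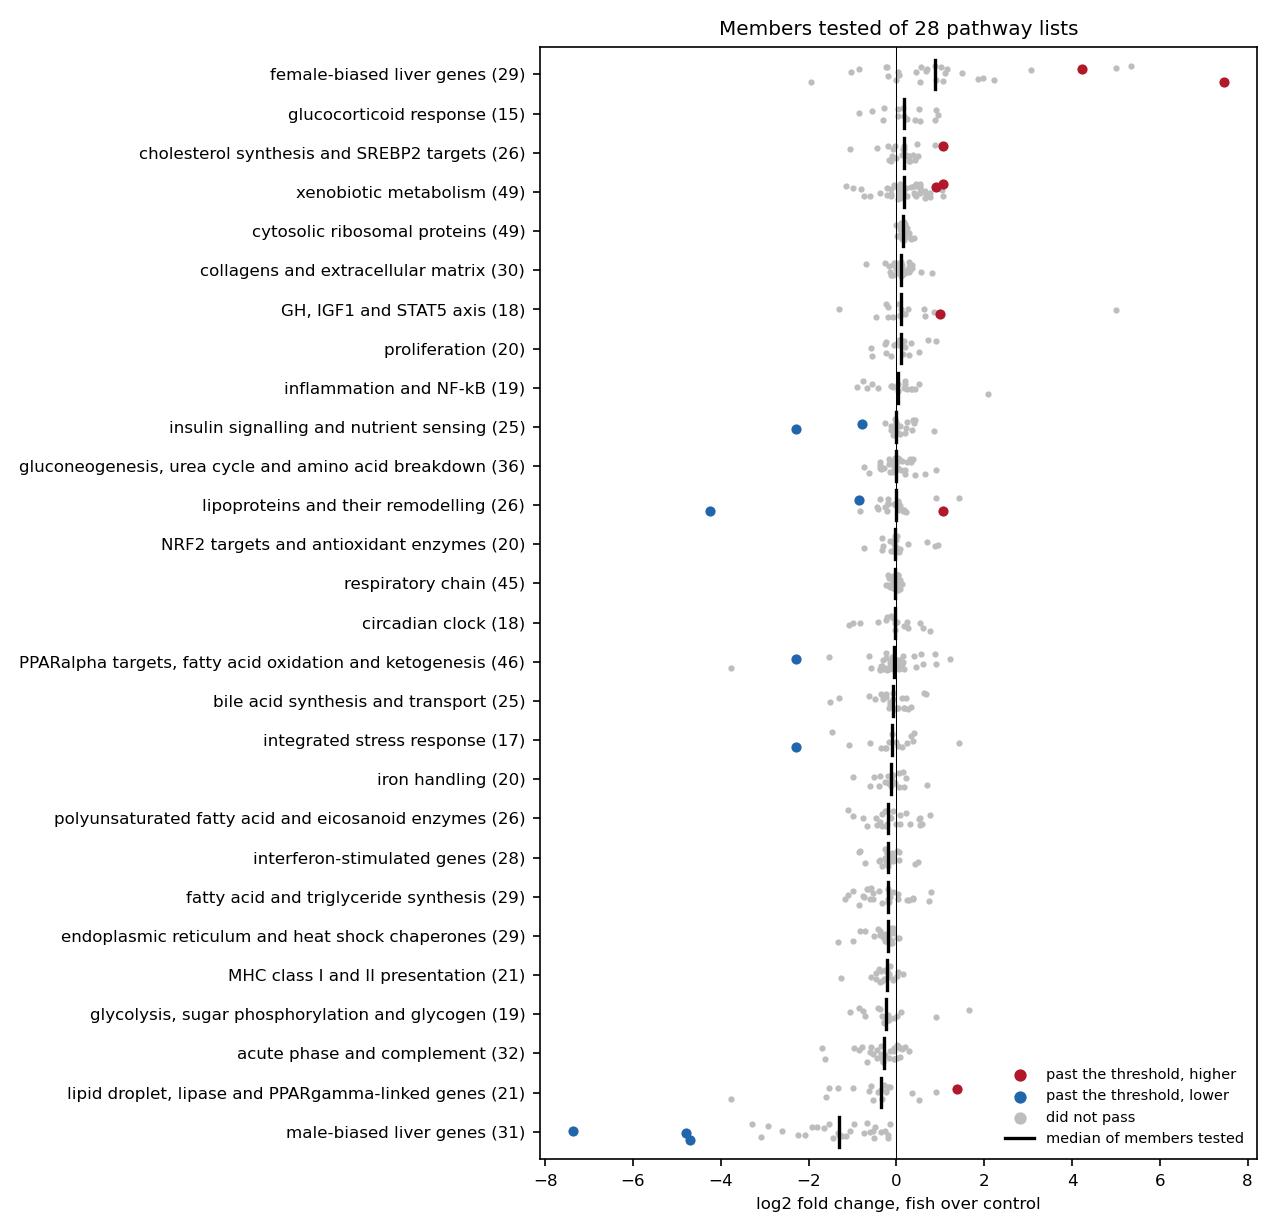
Log2 fold change (fish over control livers) of the tested members of 28 pathway lists, with the number tested in brackets and the list median as a black bar. Red and blue points are members past the threshold; the male-biased list (median -1.31) and the female-biased list (median 0.89) lie at the bottom and the top.

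Several called genes encode hormones, their carriers or receptors. Fgf21, a fasting and stress hormone of liver (chr7:45613907-45615490), fell to 0.573, 0.899, 0.979 and 1.77 CPM in fish livers, against 6.73, 4.39 and 4.42 CPM in control livers (log2 fold change -2.28 ± 0.34, edgeR adjusted p = 0.0315). It was low in all livers, and the groups did not overlap. Igfbp2, a binding protein for insulin-like growth factors that is known to be high in fasting, rose to 752, 599, 659 and 617 CPM in fish livers, against 404, 267 and 289 CPM in control livers (1.0 ± 0.13, adjusted p = 0.0203). Lepr, the leptin receptor, rose to 79.0, 81.1, 34.7 and 79.1 CPM in fish livers, against 21.3, 12.1 and 19.3 CPM in control livers (1.93 ± 0.31, adjusted p = 0.0382). Fish liver 1124 was well below the other fish livers and still above the control livers. Enho, which encodes the secreted peptide adropin, rose to 8.53, 4.37, 5.68 and 5.0 CPM in fish livers, against 1.98, 0.549 and 0.769 CPM in control livers (2.39 ± 0.39, adjusted p = 0.0406).

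Serpina12, which encodes vaspin, a serpin linked to insulin sensitivity, fell to 14.7, 12.7, 10.3 and 20.4 CPM in fish livers, against 63.6, 56.1 and 54.9 CPM in control livers (-2.03 ± 0.21, edgeR adjusted p = 0.0126). Sesn3, a sestrin that restrains the growth kinase mTORC1, fell to 3.80 to 5.22 CPM in fish livers, against 7.28 to 7.94 CPM in control livers (-0.79 ± 0.13, adjusted p = 0.0411). Inhbe, the subunit of activin E, chosen after its values were seen, fell to 35 to 54.5 CPM in fish livers, against 74.2 to 111 CPM in control livers (-1.0 ± 0.14, adjusted p = 0.0245). Of 25 genes of insulin signalling and nutrient sensing, 2 fell (Fgf21 and Sesn3) and 0 rose, and of 17 of the integrated stress response 1 fell, Fgf21. The share that fell over all genes tested was 0.447%. The calls of Fgf21, Igfbp2, Lepr, Enho, Serpina12, Sesn3 and Inhbe were all lost without control liver 1120 (adjusted p 0.0546 to 0.167) and without control liver 1121 (0.0646 to 0.195). Without fish liver 1067 the calls of Inhbe, Fgf21, Lepr, Enho and Sesn3 were lost (0.0550 to 0.111), without 1123 those of Fgf21, Lepr and Sesn3 (0.0688 to 0.0931), without 1124 those of Igfbp2, Inhbe, Fgf21, Enho and Sesn3 (0.0691 to 0.105), and without 1125 those of Lepr, Enho and Sesn3 (0.0744 to 0.0828). In the fit of all 4 liver diets the calls of Igfbp2, Inhbe, Fgf21, Enho and Sesn3 were lost (0.0562 to 0.427), with limma-voom those of Lepr and Enho (0.0518 to 0.0573), and in limma on log2 RPKM those of Inhbe, Lepr and Sesn3 (0.0517 to 0.0818). The replicate block lost those of Igfbp2, Fgf21, Enho and Sesn3 (edgeR, 0.0787 to 0.185).

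Among the called rises were 2 genes of the xenobiotic metabolism list. Cyp3a11, the main drug-metabolising P450 of mouse liver (chr5:145854426-145879964), rose to 2322, 2394, 2138 and 2599 CPM in fish livers, against 1072, 1273 and 934 CPM in control livers (log2 fold change 1.07 ± 0.15, edgeR adjusted p = 0.0245). The fish livers were close to each other and all above the highest control liver. Cyp2c37, which oxidises arachidonic acid, rose to 529, 647, 532 and 654 CPM in fish livers, against 296, 335 and 292 CPM in control livers (0.89 ± 0.14, adjusted p = 0.0329). Of 49 genes of xenobiotic metabolism these 2 rose and 0 fell, against 0.176% and 0.447% of all genes tested. An unadjusted p under 0.05 was met by 15 with higher and 6 with lower values in fish livers. The shares over all genes tested were 5.99% and 7.86%. The list median was 0.17.

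Rdh9 and Rdh16f2, retinol and steroid dehydrogenases of a cluster on chromosome 10, rose to 338 to 468 CPM and 133 to 183 CPM in fish livers, against 152 to 195 CPM and 63.4 to 96.0 CPM in control livers (1.11 ± 0.15, edgeR adjusted p = 0.0209, and 0.93 ± 0.16, adjusted p = 0.0415). The annotated exons of Rdh9 overlap those of Rdh16f1 over 64.1% of their bases on the same strand, so reads of these copies may be shared. Csad, the enzyme that commits cysteine to taurine, used to conjugate bile acids, had 208, 197, 205 and 202 CPM in fish livers, against 109.6, 104 and 117 CPM in control livers (0.83 ± 0.08, adjusted p = 0.0126). Its 4 fish livers lay within a narrow range above the control livers, and the gene was chosen after its values were seen. In the fit of all 4 liver diets, 4 of the 5 calls were lost, those of Csad, Cyp3a11, Cyp2c37 and Rdh16f2 (adjusted p 0.0531 to 0.544), and that of Rdh16f2 also in limma on log2 RPKM (0.0510 to 0.0533). Without soy livers 1073 and 1159 in that fit only Csad was lost (0.356). All 5 calls were lost without control liver 1120 (adjusted p 0.0546 to 0.120) and without control liver 1121 (0.0644 to 0.177). The call of Cyp3a11 was also lost without fish livers 1067 (0.0582), 1123 (0.0558) and 1124 (0.0647). Among the other 4, 2 were lost without 1123, 3 without 1124 and 2 without 1125. The replicate block lost the calls of Rdh9, Cyp3a11 and Cyp2c37 (edgeR, 0.0614 to 0.0985).

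Among the 12 largest falls with at least 5 CPM in a group were several genes of membrane or secreted proteins. Gpc1, a heparan sulfate proteoglycan anchored to the membrane (chr1:92831645-92860198), fell to 4.84, 12.3, 7.90 and 5.68 CPM in fish livers, against 44.6, 40.6 and 52.3 CPM in control livers (log2 fold change -2.63 ± 0.26, edgeR adjusted p = 0.0126). A neighbouring gene on the opposite strand, Ankmy1, covers 18.9% of its exon bases. Cntnap1, an adhesion protein best known at the axon, fell to 1.26 to 1.72 CPM in fish livers, against 5.74 to 11.7 CPM in control livers (-2.75 ± 0.30, adjusted p = 0.0126). Aqp4, a water channel, fell to 2.93 to 5.68 CPM in fish livers, against 19.1 to 27.5 CPM in control livers (-2.32 ± 0.26, adjusted p = 0.0126). In each of these genes the highest fish liver was at less than the lowest control liver by a margin wider than the range of the fish livers.

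Wfdc2, a secreted protein with a protease inhibitor fold, fell to 1.04 to 3.66 CPM in fish livers, against 7.96 to 14.5 CPM in control livers (-2.50 ± 0.34, edgeR adjusted p = 0.0209). Mmd2, a membrane protein of the progestin and adipoQ receptor family, fell to 1.21 to 4.49 CPM in fish livers, against 10.7 to 15.4 CPM in control livers (-2.42 ± 0.34, adjusted p = 0.0229). Rarres1, a retinoid-responsive gene, fell to 14.1 to 21.9 CPM in fish livers, against 44.6 to 79.4 CPM in control livers (-2.01 ± 0.25, adjusted p = 0.0192). The smaller rises by the same rule included Adgrg2, an adhesion G protein-coupled receptor, at 11 to 15.6 CPM in fish livers and 4.74 to 7.30 CPM in control livers (1.21 ± 0.19, adjusted p = 0.0329), and Bhlhb9, an X-linked gene, at 6.68, 12.2, 7.97 and 6.83 CPM in fish livers and 3.47, 3.23 and 3.08 CPM in control livers (1.32 ± 0.23, adjusted p = 0.0430). The call of Bhlhb9 was lost in 6 of the 7 removals of a library, all but that of fish liver 1123, in which it was highest (1.10 without it, adjusted p = 0.0379).

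Chosen after their values were seen, Cldn1, a tight junction protein, fell to 9.93 to 14.6 CPM in fish livers, against 25.3 to 38.5 CPM in control livers (-1.34 ± 0.17, edgeR adjusted p = 0.0192), and Fabp2, a fatty acid binding protein best known in intestine, to 39.1, 39.5, 43.9 and 71.8 CPM in fish livers, against 117, 121 and 145 CPM in control livers (-1.43 ± 0.24, adjusted p = 0.0415). Of these 10 genes of the surface, the extracellular space and others, Gpc1, Cntnap1 and Aqp4 passed without each fish liver. All 10 calls were lost without control liver 1120 (adjusted p 0.0546 to 0.175) and without control liver 1121 (0.0644 to 0.195), with 4, 2, 6 and 3 lost without fish livers 1067, 1123, 1124 and 1125 (0.0578 to 0.143). The call of Bhlhb9 was also lost with limma-voom (0.0823) and in limma on log2 RPKM, there with Adgrg2 at the larger pseudocount (0.0510 to 0.0817). The replicate block lost the calls of Cldn1, Wfdc2, Adgrg2 and Bhlhb9 (edgeR, 0.0566 to 0.0874).

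Further called genes, also chosen after their values were seen, act on sterols. Srd5a1, the steroid 5alpha-reductase that inactivates or activates androgens and glucocorticoids, fell to 3.48 to 10.1 CPM in fish livers, against 20.2 to 38 CPM in control livers (-1.98 ± 0.31, edgeR adjusted p = 0.0329). Slc10a2, a sodium-dependent bile acid transporter, fell to 1.72 to 3.91 CPM in fish livers, against 8.5 to 11.3 CPM in control livers (-1.77 ± 0.27, adjusted p = 0.0328). Cyp46a1, a cholesterol 24-hydroxylase known for its role in brain, fell to 7.38 to 11.6 CPM in fish livers, against 24.2 to 34.2 CPM in control livers (-1.69 ± 0.17, adjusted p = 0.0126). All 3 calls were lost without control liver 1120 (0.0546 to 0.138), and those of Slc10a2 and Srd5a1 without control liver 1121 (0.0952 to 0.154) and fish liver 1124 (0.0961 to 0.105). Without fish liver 1123 Slc10a2 did not pass (0.0703), nor Srd5a1 without 1125 (0.0824) or in limma on log2 RPKM (0.0533 to 0.0596). The replicate block also lost the call of Srd5a1 (edgeR, 0.0787). Of 25 genes of the bile acid list, which holds none of these 3 genes, 0 passed in edgeR, against 0.623% of all genes tested. An unadjusted p under 0.05 was met by 1 with higher and 4 with lower values in fish livers. The shares over all genes tested were 5.99% and 7.86%.

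Ang and Rnase4 encode secreted ribonucleases, share a start site on chromosome 14 and rose together. Ang measured 33.3, 35.2, 37.2 and 40.7 CPM in fish livers, against 23.1, 16.6 and 21.4 CPM in control livers (0.81 ± 0.12, edgeR adjusted p = 0.0328). Rnase4 measured 1099, 1299.9, 1279.8 and 1272 CPM in fish livers, against 745, 690.0 and 790.3 CPM in control livers (0.70 ± 0.11, adjusted p = 0.0329). Their exons overlap on the same strand over 18.2% of the bases of Ang and 13.4% of those of Rnase4, so they are not independent counts. Qpct, a glutaminyl cyclase that modifies secreted peptides, also rose, with 21.3 to 26.1 CPM in fish livers, against 12.8 to 13.5 CPM in control livers (0.84 ± 0.10, adjusted p = 0.0146). The 250 bases before the shared RefSeq start (chr14:51090827-51091076, GRCm38.p6, plus strand, 5′ to 3′) are shown because both genes have this window, and no letter is in capitals since it holds none of the 5 motifs searched.
Ang and Rnase4: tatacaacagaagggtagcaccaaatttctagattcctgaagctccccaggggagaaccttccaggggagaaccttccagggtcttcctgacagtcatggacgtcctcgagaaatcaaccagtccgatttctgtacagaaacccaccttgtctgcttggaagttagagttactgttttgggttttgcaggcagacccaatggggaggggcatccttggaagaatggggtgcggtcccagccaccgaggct
Both calls were lost without control liver 1120 or 1121 and without fish livers 1123 and 1124, and that of Rnase4 also without 1125. Both were lost in the fit of all 4 liver diets (0.0563 to 0.171), and Ang also in that fit without soy livers 1073 and 1159 (0.0576). Over these genes and Qpct the adjusted p values lost on removal of a library ran from 0.0569 to 0.138. The replicate block lost the calls of Ang, Rnase4 and Qpct (edgeR, 0.0648 to 0.0777).

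Small falls were called in some genes of traffic between endoplasmic reticulum and Golgi and in a stress sensor kinase, noticed after the values were seen. No list of traffic genes was drawn up, so the share of such genes that fell is not known. The share called lower over all genes tested was 0.447%. Sec24d, a coat subunit that selects cargo, fell to 42.3 to 54.6 CPM in fish livers, against 73.6 to 87.8 CPM in control livers (-0.76 ± 0.08, edgeR adjusted p = 0.0126). Sec22c, a vesicle traffic protein, fell to 16.8 to 18.9 CPM in fish livers, against 23.4 to 27.8 CPM in control livers (-0.55 ± 0.08, adjusted p = 0.0323). Gbf1, which activates the small G protein of coat assembly, fell to 39.3 to 45.7 CPM in fish livers, against 53.1 to 56.4 CPM in control livers (-0.42 ± 0.07, adjusted p = 0.0424). In these genes the shift was small but livers of a group were close to each other and the groups did not overlap. Eif2ak3, the stress sensor kinase PERK, fell to 12 to 14 CPM in fish livers, against 17.4 to 18.9 CPM in control livers (-0.51 ± 0.09, adjusted p = 0.0430). Prrc1, a protein of endoplasmic reticulum exit sites with 43.5% unique reads, fell to 29.4 to 34.3 CPM in fish livers, against 39.0 to 47.5 CPM in control livers (-0.56 ± 0.09, adjusted p = 0.0401), and its call was lost on unique reads, as was that of Gbf1 (0.0576 to 0.0898). In the list of 29 chaperones of the endoplasmic reticulum and heat shock 0 passed, against 0.623% of all genes tested, and the median was -0.20. An unadjusted p under 0.05 was met by 0 with higher and 9 with lower values in fish livers. The shares over all genes tested were 5.99% and 7.86%. These calls were lost without control liver 1120 (0.0546 to 0.180) and 1121 (0.0682 to 0.195), and all but that of Sec24d without any single fish liver (0.0684 to 0.143). In the fit of all 4 liver diets none of them passed (0.157 to 0.578), and in limma on log2 RPKM only Sec24d did (the others 0.107 to 0.154). Without soy livers 1073 and 1159 in the fit of all 4 diets, Sec24d, Sec22c, Gbf1 and Eif2ak3 did not pass (0.0585 to 0.166). Eif2ak3 was also lost with limma-voom (0.0535) and at a mean of at least 5 CPM (0.0507), and Gbf1 with no filter (0.0543). The replicate block lost all 5 calls (edgeR, 0.0694 to 0.224).

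Of the 28 pathway lists 10 held a called gene. Among the others, 0 of 36 genes of gluconeogenesis, urea cycle and amino acid breakdown passed in edgeR, against 0.623% of all genes tested. Tat, a tyrosine aminotransferase induced by glucocorticoids, measured 1536, 1490.1, 1712 and 1596 CPM in fish livers and 1078, 592 and 810.4 CPM in control livers (0.91 ± 0.16, edgeR adjusted p = 0.0501). In 32 acute phase and complement genes 1 had an unadjusted p under 0.05 with higher and 9 with lower values in fish livers, with a median of -0.27. The shares over all genes tested were 5.99% and 7.86%. C9, a part of the membrane attack complex that is also male-biased, measured 75.3 to 129.8 CPM in fish livers and 152 to 238 CPM in control livers (-0.96 ± 0.19, adjusted p = 0.0730). Of 21 genes of antigen presentation 7 had such a p with lower and 0 with higher values, with a median of -0.22. Tap1, the peptide transporter subunit, measured 17.6 to 20.2 CPM in fish livers and 25.1 to 26.9 CPM in control livers (-0.46 ± 0.09, adjusted p = 0.0717).

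Several lists had a median close to 0. None of 20 NRF2 targets and antioxidant enzymes had an unadjusted p under 0.05 in edgeR, against 13.9% of all genes tested, with a median of -0.02. Of 45 respiratory chain genes 0 passed, against 0.623% of all genes tested, and 1 had such a p (median -0.03). In 30 collagens and matrix genes 0 passed and 3 had such a p (1 higher and 2 lower, median 0.10), and in 18 clock genes 0 passed and 8 had such a p (5 higher and 3 lower, median -0.04). The 49 cytosolic ribosomal protein genes had a median of 0.15. In 32 of them the fish livers were all above the control livers, against 7.13% of all genes tested, yet 4 had an unadjusted p under 0.05 and 0 passed, and ribosomal genes share reads with many pseudogene copies. Rpl10, of whose reads 2.87% were unique, measured 282 to 313 CPM in fish livers and 214 to 248 CPM in control livers (0.33 ± 0.08, adjusted p = 0.140).

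To see where fish livers differed from the other restricted livers, fish was set against the mean of soy and lard livers in a fit of all 15 liver libraries, which shares the fish livers with the comparison above. In it 44 of 12788 genes passed (edgeR, 0.344%), and 6 of the 78 called against control were among them. Soy livers 1073 and 1159 stood apart from all other livers on the first component (-69.0 and -54.5, against 2.01 to 18.2), with 5.47% and 5.41% of gene reads outside exons. Without both of them 36 genes passed. The count was 11, 11, 4 and 26 without fish livers 1067, 1123, 1124 and 1125, 257 and 28 without soy livers 1065 and 1159, and 18 without lard liver 1100 or 1101.

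Apoa4 had 76.0 to 182 CPM in fish livers, 444, 2401, 881 and 753 CPM in soy livers 1065, 1073, 1141 and 1159, 652 to 1090.1 CPM in lard livers and 985 to 2882 CPM in control livers. Fish livers were below all others, by 3.20 ± 0.49 on the log2 scale against soy and lard (edgeR adjusted p = 0.0136). Cyp3a11 had 2138 to 2599 CPM in fish livers, 823 to 1457 CPM in soy livers, 727 to 1104 CPM in lard livers and 934 to 1273 CPM in control livers, higher in fish than in soy and lard by 0.99 ± 0.17 (adjusted p = 0.0244). Lpl had 30.9 to 55.8 CPM in fish livers, 11 to 25.7 CPM in soy livers and 12.7 to 21.8 CPM in lard livers (1.10 ± 0.22, adjusted p = 0.0496), and Bhlhb9 6.68 to 12.2, 2.46 to 3.68 and 3.3 to 4.95 CPM in fish, soy and lard livers (1.17 ± 0.18, adjusted p = 0.0136). For these 4 genes every fish liver lay outside the range of the soy, lard and control livers. The call of Apoa4 was lost without fish livers 1067 and 1124, that of Bhlhb9 without 1124, and that of Cyp3a11 without any single fish liver (adjusted p up to 0.0777, 0.0582 and 0.0825). The call of Lpl was lost in 13 of the 15 removals of a library, all but those of soy livers 1065 and 1159 (up to 0.187). The replicate block lost the calls of Cyp3a11 and Lpl (edgeR, 0.0549 and 0.0648).

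Pgm3, an enzyme of the hexosamine pathway, and Mppe1, a phosphoesterase of GPI anchor maturation, were lower in fish livers than in soy and lard livers by 0.87 ± 0.15 (edgeR adjusted p = 0.0271) and 0.79 ± 0.14 (adjusted p = 0.0285) on the log2 scale. Pgm3 had 12.1 to 16.0 CPM in fish livers, 17.5 to 18.7 CPM in soy livers, 22.5 to 34.1 CPM in lard livers and 27.1 to 39.1 CPM in control livers. Pklr, short of the threshold against control, had 202 to 279 CPM in fish livers, 251 to 580.5 CPM in soy livers and 427 to 749.8 CPM in lard livers, a difference of -1.27 ± 0.23 (adjusted p = 0.0285). These 3 calls were lost without fish livers 1067, 1123 and 1124 and lard liver 1101, those of Mppe1 and Pklr also without fish liver 1125 and that of Pklr without lard liver 1100 (adjusted p up to 0.125). Without soy livers 1073 and 1159 Pgm3 stood at an adjusted p of 0.0508. With the replicate block Mppe1 stood at 0.0592 (edgeR).

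For most of the named genes the difference from soy and lard did not pass, which does not show that the diets act alike. Cyp2b13 had 41.5 to 390.1 CPM in fish livers, 34.6 to 329.5 CPM in soy livers and 31.3 to 205 CPM in lard livers (-0.01 ± 0.62, edgeR adjusted p = 0.994). Mup15 had 0.196 to 3.69, 0.224 to 3.39 and 0.707 to 3.85 CPM in fish, soy and lard livers (-0.36 ± 0.77, adjusted p = 0.835). Sult2a7 had 27.9 to 53.6, 5.61 to 44 and 7.88 to 22.7 CPM in fish, soy and lard livers (1.08 ± 0.40, adjusted p = 0.223). For these 3 genes the fish and soy livers overlapped. Near the threshold were Serpina12, with 10.3 to 20.4, 20.4 to 73.8 and 24.7 to 39.9 CPM in fish, soy and lard livers (-1.52 ± 0.31, adjusted p = 0.0561), and Gpc1, with 4.84 to 12.3, 8.21 to 16.0 and 14.9 to 21.2 CPM (-1.13 ± 0.24, adjusted p = 0.0610). Fgf21 had 0.573 to 1.77, 1.29 to 5.45 and 1.06 to 4.01 CPM in the same order of diets (-1.44 ± 0.42, adjusted p = 0.164).

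**Figure D5:**
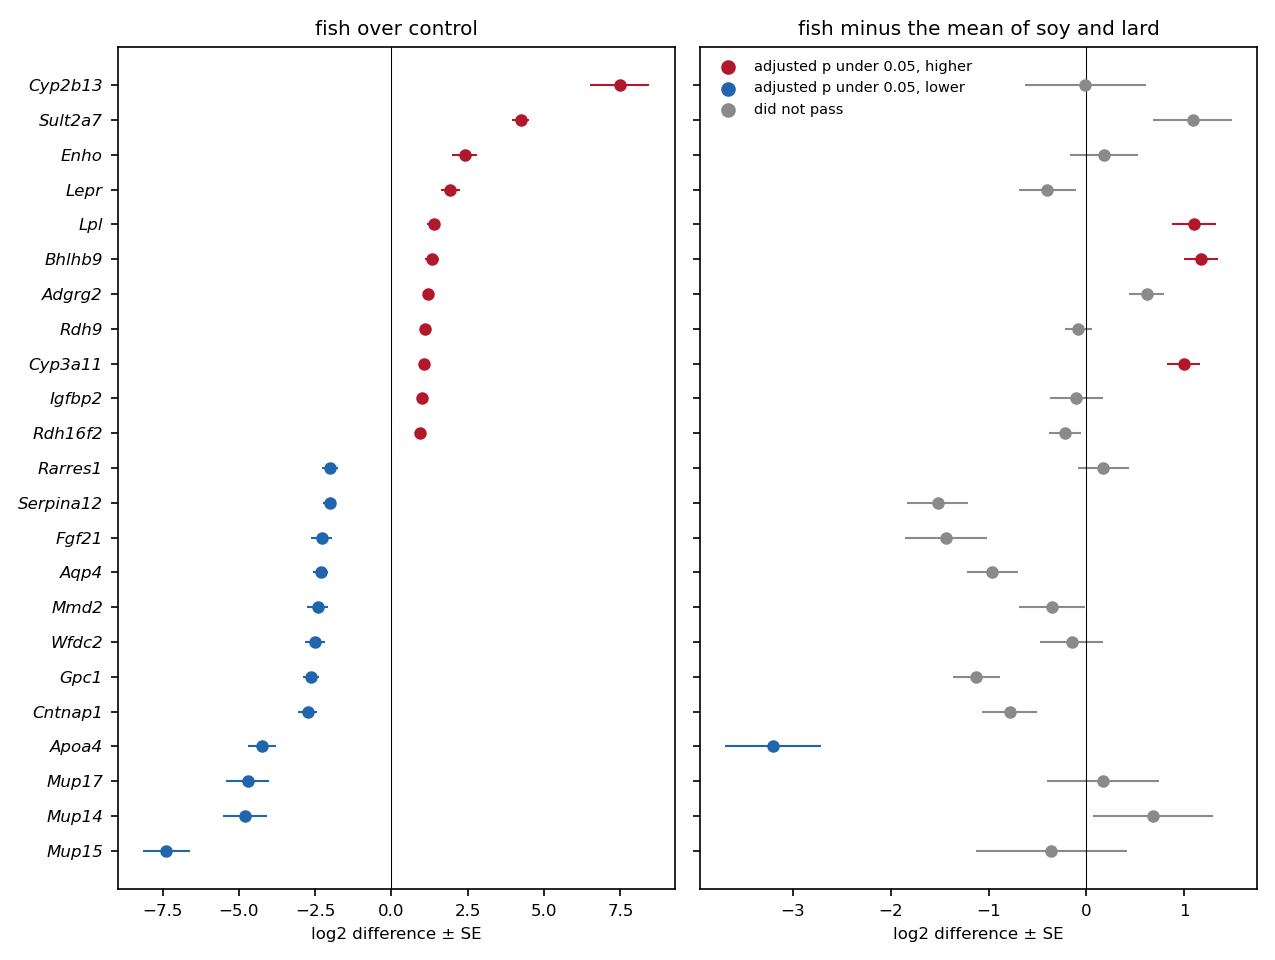
Log2 difference ± SE of genes with the largest rises and falls chosen by rule, fish over control on the left and fish minus the mean of soy and lard on the right, with separate axes. Colour marks an adjusted p under 0.05 (edgeR), which on the right holds for Lpl, Bhlhb9, Cyp3a11 and Apoa4.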

How the data were processed

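Per the labels' protocols, RNA was extracted with Trizol and libraries were made with a TruSeq RNA kit, and FastQC and GRCm38 stand in the submitters' processing notes. The aligner, counter and strandedness were not given in the sources used here. Reads of antisense pairs can therefore not be told apart. The authors deposited, per the file headers, read counts per gene (total and unique exon reads, total gene reads) and RPKM values, which are exon reads per kilobase and per 1000000 gene reads. A control liver that the submitters discarded was not analysed here. No library column was left without a sample. Gene symbols came from the GENCODE names supplied for the IDs (36345 of 38124 matched), and promoter windows from RefSeq (56 of the 78 called genes matched).

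Total exon reads were fitted with edgeR 4.0.16 in R 4.3.3 (TMM scaling, filterByExpr with a minimum count of 10, quasi-likelihood F test, Benjamini-Hochberg adjustment over all genes tested, threshold 0.05). Fish and control livers were fitted alone; soy and lard livers joined them only for the second comparison. SE was the log2 fold change divided by the square root of F. Each library is a separate mouse, and 4 against 3 mice cannot go below p = 0.0571 in an exact two-sided permutation test. Libraries of a group differed by more than sampling noise (chi-square per degree of freedom 18.7 to 39.8). The fit was tested on simulated data.

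Genes named by rule were, among called genes with at least 5 CPM in a group and no overlap, the 12 largest rises and 12 largest falls, up to 4 called members of each pathway list, and 2 members by smallest p where none was called. The rule gave 61 genes, 27 of them called, and other genes named were chosen after their values were seen. Some genes that the rule gave are not reported here. The members and lists were chosen with earlier results of these data known. Alternatives were DESeq2 1.42.0 (Wald test), edgeR with DESeq2-type size factors (its RLE scaling) and limma 3.58.1 (voom, and log2 RPKM with a pseudocount of 0.1 or 1). Further ones were other filters, unique reads, a 1.5-fold test, a replicate block, other sets of livers and the removal of each library. Windows were aligned with biopython 1.88.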

Additional observations from a re-analysis of the deposited data

Results flagged for a closer look

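Of 161 sets of 4 livers checked, 12 had 1 liver far from the others, and chance flags about 1 in 20. The summed skeletal muscle markers reached 3937 CPM in fish liver 1123, with 458 CPM in the next fish liver, and the summed neutrophil markers reached 12.6 CPM in fish liver 1124, with 4.58 CPM in the next. Among fish livers the lowest value stood apart for Lepr (34.7 CPM, the next 79.0), Rnase4 (1099 CPM, the next 1272), Rnf24 (22.2 CPM, the next 26.9), Tap1 (17.6 CPM, the next 19.9) and Cxcl10, a chemokine (0.783 CPM, the next 0.938). The highest value stood apart for Mup7 (464 CPM, the next 95.6), Fads2, a desaturase of polyunsaturated fat (717 CPM, the next 352), Fabp2 (71.8 CPM, the next 43.9), Apoa5, an apolipoprotein (1707 CPM, the next 1529.6) and Oasl1, an interferon-stimulated gene (5.69 CPM, the next 4.84).

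For 7 named genes, fish livers differed from the mean of soy and lard livers by edgeR's test of that difference. On the log2 scale, fish minus the mean of soy and lard was -3.20 for Apoa4, -1.27 for Pklr, -0.87 for Pgm3, -0.79 for Mppe1, 0.99 for Cyp3a11, 1.10 for Lpl and 1.17 for Bhlhb9.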

How the results depend on the processing

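In fish against control livers, 78 genes passed. The count was between 64 and 93 with DESeq2-type size factors in edgeR, limma-voom, other filters or unique reads, and 57 with limma on log2(RPKM + 0.1). It was 360 with DESeq2's Wald test, 137 with all 4 diets but without soy livers 1073 and 1159, 49 with all 4 diets, 47 with limma on log2(RPKM + 1) and 8 against a 1.5-fold change. Leaving out 1 library gave 1 to 196. The library number as a replicate block gave 39, of which 22 were among the 78. Deviations of same-numbered livers from their group means correlated at r = 0.058, -0.054 and 0.123. Those of the other pairs of a fish and a control liver ran from -0.246 to 0.186. With so few pairs, and deviations tied together by the group means, this check cannot decide whether same-numbered libraries belong together. The main fit held no block. In fish against the mean of soy and lard livers, 44 genes passed, 283 with DESeq2's Wald test, 22 at a mean of at least 5 CPM, 25 with the replicate block, 0 against a 1.5-fold change (edgeR, 301 at an unadjusted p under 0.05) and 4 to 257 with 1 library left out. Of the 78 genes, 10 were lost with limma-voom, 7 on unique reads, 42 with all 4 diets, 56 with the replicate block and 70 against a 1.5-fold change. The cause of these shifts was not tested. The share of higher genes among the calls was 28.2% in the first comparison, 37.2% with DESeq2's Wald test and 20.4% with all 4 diets, and 61.4% and 41.0% (Wald) in the second. No sign turned for any of the 78 genes in these alternatives. Apart from removals of a library, 7 of them passed in every alternative in which they were tested. Cntnap1, among these 7, was tested in 11 of the 12. Depth was 14110643 to 19188291 exon reads per liver, and 69 of the 78 genes averaged at least 5 CPM in fish or control livers.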
